A study of Sus scrofa with 8 samples.

Results

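The epithelial cells that line the jejunum are joined side to side by tight and adherens junctions, and 10 genes of these junctions were followed in piglets sampled 4 days after weaning. The genes are the claudins CLDN1, CLDN2, CLDN3, CLDN4, CLDN7 and CLDN15, occludin (OCLN), the scaffold protein TJP1, E-cadherin (CDH1) and β-catenin (CTNNB1). They were listed by symbol, and a gene was kept when a non-control probe of the array carried a RefSeq accession of that symbol. This held for 8 of the 10 genes, with 15 probes among 43603 on the array and 8 symbols among 3216; CLDN1 and TJP1 were not analysed here. Each of the 5 claudins had 1 probe. OCLN had 3 probes, CDH1 had 2 and CTNNB1 had 5, and the probe with the highest mean signal over all arrays stood for the gene. All 8 genes were well above background on all 8 arrays, so none was lost to the filter on dim probes.

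The weaned group held 4 Duroc × Landrace piglets that were taken from the sow at 21 days of age, given free access to a basal diet, and sampled at 25 days. The 4 suckling piglets were of the same age and cross and stayed with the sow. The piglets of both groups came from the same 4 litters, and each array held the RNA of 1 piglet, from a washed piece of middle jejunum about 2 cm long, labelled with the dye Cy3. Such a piece holds epithelium together with muscle, vessels, connective tissue and immune cells, so a lower signal of an epithelial gene can come from fewer epithelial cells or from less RNA per cell, and these cannot be told apart.

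All weaned arrays lay on one slide and all suckling arrays on the other, and each slide was scanned on its own, so a slide effect and the effect of weaning cannot be told apart. One array stood apart. Suckling replicate 1 had a 75th percentile of 244 intensity units, against 316 to 393 in the other 7 arrays. The quality summary of the software that read the scans also differed by group, with a grade of InRange for all 4 weaned arrays and Evaluate for all 4 suckling arrays. The share of probes well above background ran between 67.6% and 71.0%. The results for the junction genes are given with and without suckling replicate 1.

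Tight junctions close the gap between neighbouring cells near the lumen. Claudins form their strands, and the mix of claudins sets what passes: some make the strands tighter, while CLDN2 and CLDN15 form channels for small cations. Adherens junctions lie just below and hold the cells together through E-cadherin, whose inner end is tied to actin by β-catenin and its partners. The barrier of the small intestine is known to loosen in piglets after weaning, which is the setting in which these genes are often measured.

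No junction gene passed the threshold between weaned and suckling jejunum. With all 8 arrays, 0 of the 8 genes had a limma adjusted p under 0.05, and 0 of 8 had an unadjusted p under 0.05; over all 30554 tested probes 0.177% passed and 12.3% had an unadjusted p under 0.05. The differences, weaned minus suckling on the log2 scale, lay between -0.13 for CLDN3 and 0.25 for CLDN4, with a median of 0.04 over the 8 genes and of 0.04 over all tested probes. The 95% intervals were wide for CLDN4 and CLDN7 (widths of 2.13 and 1.81) and narrowest for CLDN3 and CTNNB1 (0.79 and 0.89). What set the genes apart from array to array was suckling replicate 1, which gave the lowest of the 8 values for all 8 genes. It gave the lowest value for 18.9% of all tested probes and for 25.7% of the 2813 tested symbols.

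**Figure D1:**
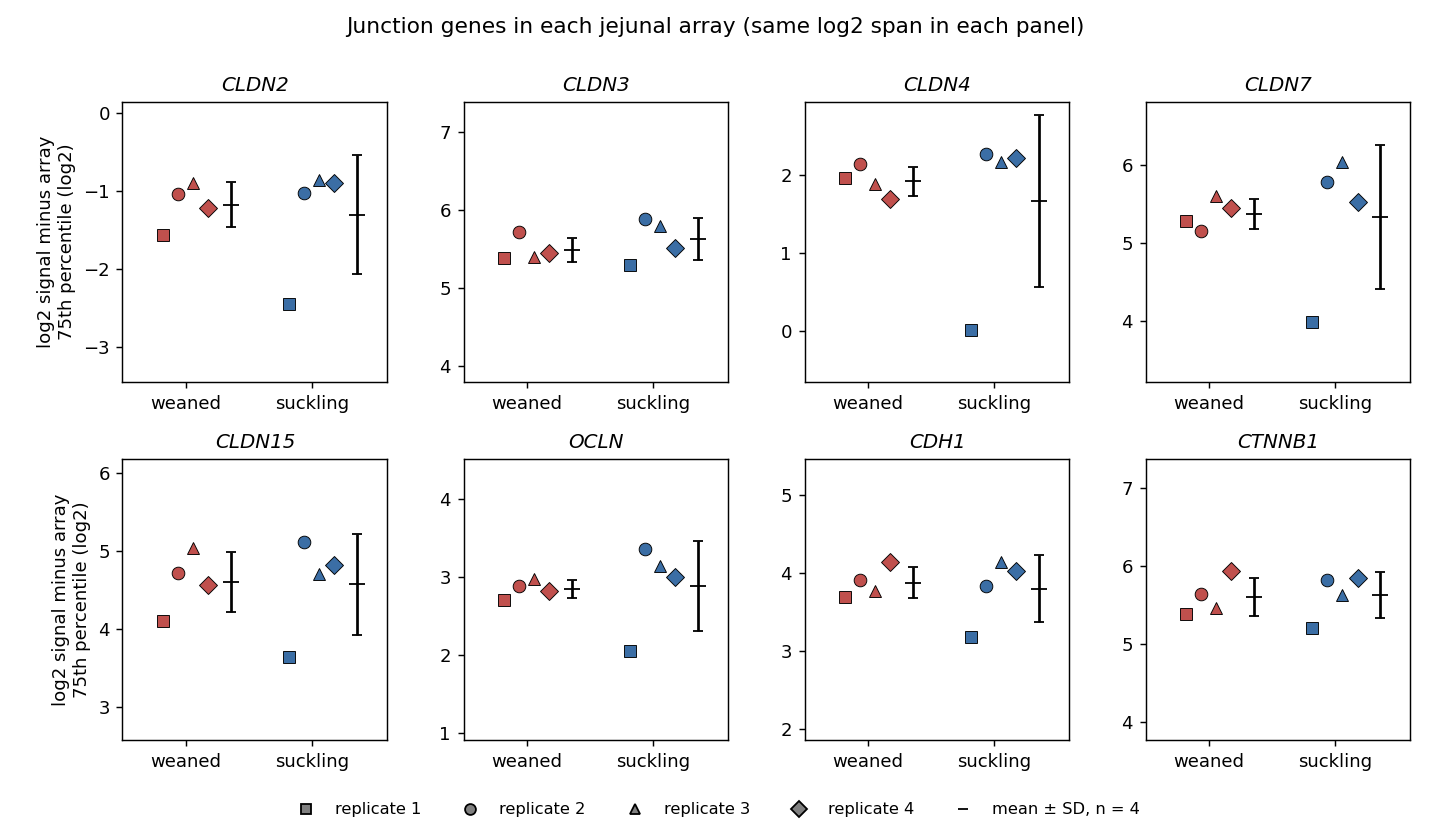
Log2 processed signal of each junction gene minus the 75th percentile of its array (y axis, log2; the axes of all panels span the same number of units but start at different levels) in the 4 weaned arrays (red) and the 4 suckling arrays (blue), with marker shape for the replicate number and black bars for the mean ± SD (n = 4). Suckling replicate 1, the blue square, is the lowest point in all 8 panels, farthest below the others for CLDN4 (0.01 against 2.16 to 2.26 in the other suckling arrays).

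Of the channel-forming claudins, CLDN2, which passes cations and water, had log2 signals of -1.56, -1.03, -0.89 and -1.21 in weaned replicates 1 to 4. In suckling replicates 1 to 4 its signals were -2.44, -1.02, -0.86 and -0.89; here and below a value of 0 marks the 75th percentile of the array. The groups overlapped, and suckling replicate 1 alone lay below every weaned array. The means were -1.17 ± 0.29 in weaned and -1.30 ± 0.76 in suckling piglets (SD, n = 4 each), a difference of 0.13 (95% interval -0.67 to 0.93, limma adjusted p = 0.91). Without suckling replicate 1 the difference was -0.25 (interval -0.67 to 0.18, limma adjusted p = 0.462).

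CLDN15, the other channel-forming claudin, is the one that in mice keeps sodium available to the sodium-coupled transporters of the small intestine. Its signals were 4.11, 4.72, 5.04 and 4.57 in weaned replicates 1 to 4, and 3.64, 5.12, 4.71 and 4.83 in suckling replicates 1 to 4. The lowest value of either group belonged to its replicate 1, and the remaining 6 arrays were interleaved. The difference was 0.04 (interval -0.71 to 0.78, limma adjusted p = 0.976) with all arrays and -0.28 (-0.81 to 0.25, limma adjusted p = 0.514) without suckling replicate 1. CLDN15 had the largest spread of the 8 genes within the weaned group, an SD of 0.39.

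CLDN3, a claudin that tightens the strands, varied least of the claudins. It had 5.38, 5.71, 5.39 and 5.45 in weaned replicates 1 to 4, against 5.29, 5.88, 5.79 and 5.51 in suckling replicates 1 to 4. The means were 5.48 ± 0.15 in weaned and 5.62 ± 0.27 in suckling piglets (SD, n = 4 each). Its log2 difference of -0.13 (interval -0.53 to 0.26, limma adjusted p = 0.793) was negative with every single array left out, from -0.24 to -0.05. The interval leaves room for a level up to 1.44-fold lower or 1.20-fold higher in weaned piglets.

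CLDN4, which also restricts the passage of ions and lies next to CLDN3 in the gene table of the Sscrofa11.1 assembly, showed the largest gap. Its processed intensity was 1220, 1700, 1440 and 1230 in weaned replicates 1 to 4, and 245, 1870, 1760 and 1570 in suckling replicates 1 to 4. After scaling, the weaned arrays had 1.95, 2.14, 1.88 and 1.68, against 0.01, 2.26, 2.16 and 2.21 in the suckling arrays. The 3 other suckling arrays lay within 0.10 of each other and above all 4 weaned arrays, while suckling replicate 1 lay 2.20 below their mean. The difference was 0.25 with all arrays (interval -0.81 to 1.32, limma adjusted p = 0.861) and -0.30 without suckling replicate 1 (-0.64 to 0.05, limma adjusted p = 0.284).

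CLDN7, a claudin found along the sides and base of intestinal cells as well as in the strands, behaved in a similar way. It had 5.29, 5.15, 5.60 and 5.45 in weaned replicates 1 to 4, and 3.99, 5.78, 6.04 and 5.53 in suckling replicates 1 to 4. Suckling replicate 1 lay 1.79 below the mean of the other suckling arrays, and its intensity was 3890 where theirs were 15700 to 25800. The difference was 0.04 with all arrays (interval -0.87 to 0.94, limma adjusted p = 0.979). Without suckling replicate 1 it was -0.41, the largest of the 8 genes, with an unadjusted p of 0.0512 (limma adjusted p = 0.225).

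OCLN encodes occludin, a membrane protein of the strands that is not a claudin. Its signals were 2.70, 2.88, 2.97 and 2.81 in weaned replicates 1 to 4, against 2.05, 3.36, 3.14 and 2.99 in suckling replicates 1 to 4. The weaned arrays lay within 0.27 of each other, the closest set of the 8 genes, and all 4 were below suckling replicates 2, 3 and 4 and above suckling replicate 1. The difference was -0.04 with all arrays (interval -0.65 to 0.56, limma adjusted p = 0.961) and -0.32 without suckling replicate 1 (-0.67 to 0.02, limma adjusted p = 0.245). The 2 dimmer OCLN probes had differences of -0.17 and -0.20 and followed the brightest probe over the 8 arrays (r = 0.97 and 0.98, a description over arrays that include suckling replicate 1).

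CDH1, the adhesion molecule of the adherens junction, had 3.69, 3.91, 3.77 and 4.14 in weaned replicates 1 to 4, and 3.18, 3.84, 4.14 and 4.03 in suckling replicates 1 to 4. The groups overlapped except for suckling replicate 1. The difference was 0.08 (interval -0.43 to 0.60, limma adjusted p = 0.91), and -0.12 (-0.50 to 0.25, limma adjusted p = 0.696) without suckling replicate 1. The dimmer of its 2 probes had a difference of 0.19 (limma adjusted p = 0.76).

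CTNNB1, which ties cadherins to the cell skeleton and also carries the Wnt signal in crypt cells, had the smallest difference. Its signals were 5.38, 5.64, 5.46 and 5.93 in weaned replicates 1 to 4, and 5.20, 5.82, 5.63 and 5.84 in suckling replicates 1 to 4. The difference was -0.02 (interval -0.46 to 0.43, limma adjusted p = 0.981), and -0.16 (-0.55 to 0.24, limma adjusted p = 0.625) without suckling replicate 1. Its other 4 probes had differences from 0.03 to 0.13, so the sign at this size depends on the probe.

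**Figure D2:**
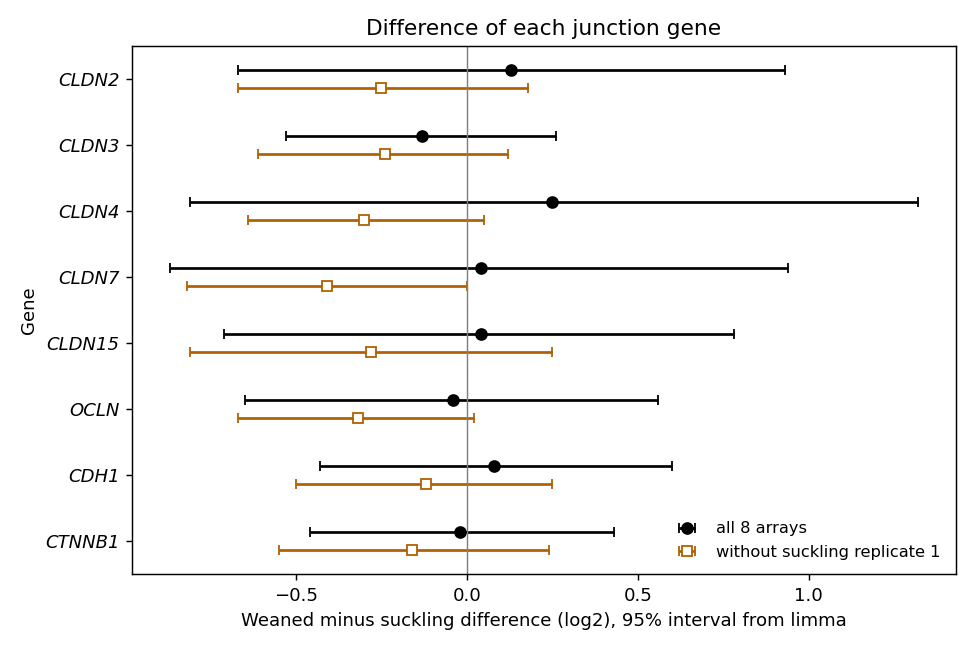
Weaned minus suckling difference of each junction gene (x axis, log2) with its 95% interval from limma, for all 8 arrays (filled circles) and without suckling replicate 1 (open squares). With all arrays the points lie between -0.13 and 0.25, and without suckling replicate 1 all 8 lie below 0, between -0.41 and -0.12.

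Without suckling replicate 1, all 8 junction genes had a lower mean in weaned than in suckling piglets. Their median difference was -0.26, against 0.04 over all tested probes, of which 54.7% were higher in mean in weaned piglets. That array held the lowest value for all 8 genes, so leaving it out lowers each difference whatever the effect of weaning. None of the 8 passed (limma adjusted p = 0.225 to 0.696), and 0 of 8 had an unadjusted p under 0.05; in the same fit 1.81% of 30344 probes passed and 22.5% had an unadjusted p under 0.05. The groups did not overlap for CLDN4 and OCLN, 2 of 8 genes, where 20.4% of all tested probes did not overlap in these 7 arrays. In fold terms the means of the claudins and OCLN were 1.18-fold to 1.33-fold lower in weaned piglets, and those of CDH1 and CTNNB1 were 1.09-fold and 1.12-fold lower. The 95% intervals narrowed to widths of 0.69 to 1.06, and each reached 0 or beyond. Leaving this array out turned the sign of the difference for CLDN2, CLDN4, CLDN7, CLDN15 and CDH1, while it was negative with and without it for CLDN3, OCLN and CTNNB1. Leaving out weaned replicate 3 also gave negative differences for CLDN7 (-0.04) and CLDN15 (-0.11), and with all 8 arrays normexp background correction gave -0.02 for CLDN2, -0.03 for CLDN15 and -0.08 for CDH1. In the 7 arrays without suckling replicate 1, the villus enterocyte markers had a median difference of -0.54, with 8 of 9 lower in mean in weaned piglets. The crypt and proliferation markers had 1.04, with 5 of 5 higher. With all 8 arrays the medians were -0.02 (4 villus markers higher, 5 lower) and 0.61 (5 of 5 higher). Suckling replicate 1 was the lowest array for all 9 villus markers and had the highest crypt level, 0.56. Leaving it out therefore lowers the villus median and raises the crypt median whatever the effect of weaning. The part of these markers in the junction values was not tested.

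The spread within the groups differed as well. The SD was larger in the suckling than in the weaned group for all 8 genes, as it was for 68.1% of all tested probes, and the ratio of suckling to weaned SD was between 1.23 for CTNNB1 and 5.87 for CLDN4. Without suckling replicate 1 the suckling SD was 0.05 to 0.25, against 0.11 to 0.39 in the weaned group. Weaned replicate 1 was the lowest of the 4 weaned arrays for 6 of 8 junction genes and for 22.0% of all tested probes. It lies at the same position on its slide as suckling replicate 1, and when both arrays were dropped, an alternative added with the data in view, the 8 differences were between -0.38 and -0.06 with 0 of 8 past the threshold.

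The genes moved together between arrays mainly through suckling replicate 1. Over the 8 arrays all 28 pairs of junction genes had a Pearson r above 0.5, from 0.53 to 0.94. Without that array 9 of 28 pairs did, and the range was -0.04 to 0.83. CLDN2 and CLDN15, the channel-forming pair, had r = 0.93 with and 0.83 without suckling replicate 1, while CLDN4 and CDH1 had 0.82 and -0.04. These are descriptions over arrays that share scaling and, within a group, a slide.

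Markers of the cells in the tissue were measured in the same arrays. Of the epithelial markers, 5 of 15 listed genes were tested, and the list level, the median deviation of its genes from their mean over the arrays, was -0.04 to 0.20 in weaned and -0.35 to 0.14 in suckling arrays. Suckling replicate 1 had -0.17 there, inside the range of its group. EPCAM, an adhesion molecule of epithelial cells named here after its values were seen, had 6.48 to 6.97 in weaned arrays and 6.54 to 7.01 in suckling arrays, with 6.54 in suckling replicate 1. LGALS4, a galectin of the gut epithelium also named after its values were seen, had 8.32 to 8.71 in weaned arrays and 8.06 to 9.14 in suckling arrays, and the 8.06, the lowest of the 8, was in suckling replicate 1. KRT8, a keratin of simple epithelia, had 8.64 ± 0.29 in weaned and 7.94 ± 0.22 in suckling piglets (SD, n = 4 each; limma adjusted p = 0.222). FXYD3, a regulator of the sodium pump, had 1.58 ± 0.12 in weaned and 1.17 ± 0.43 in suckling piglets (SD, n = 4 each). In suckling replicate 1, KRT8 was at 8.27, against 7.76 to 7.89 in the other suckling arrays, and FXYD3 at 1.21, against 0.75 to 1.76. ESRP1, the remaining tested marker, also named after its values were seen, was at 2.41 there, against 1.68 to 2.01. Suckling replicate 1 was thus the lowest suckling array for 2 of the 5 markers.

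Villus enterocyte markers, genes of the mature absorptive cells, were also lowest in suckling replicate 1. All 9 tested of 12 listed had their lowest value in suckling replicate 1, with a list level of -1.58 there, 0.25 to 1.07 in the other suckling arrays and -0.66 to 0.53 in the weaned arrays. The summed linear signal of these genes, in multiples of the 75th percentile, was 974 to 2040 in weaned and 572 to 3340 in suckling arrays, with the 572 in suckling replicate 1. For the epithelial list the same sum was 803 to 1020 in weaned and 675 to 929 in suckling arrays, and the 675, the lowest of the 8, was in suckling replicate 1. APOA4, an apolipoprotein of chylomicrons, had 8.17 ± 0.63 in weaned and 8.73 ± 1.00 in suckling piglets (SD, n = 4 each), and MEP1A, a brush border protease that was well above background on 7 of 8 arrays, had -0.27 ± 1.88 in weaned and -1.57 ± 2.55 in suckling piglets. The level of the 8 junction genes by the same measure was -0.16 to 0.10 in weaned arrays, -0.88 in suckling replicate 1 and 0.21 to 0.38 in the other suckling arrays. Among the remaining arrays the order of the 2 lists was alike in part. Weaned replicate 1 had the lowest level in both, -0.66 for the villus list and -0.16 for the junction genes. Suckling replicate 4 had the highest villus level (1.07) but the lowest junction level of suckling replicates 2 to 4 (0.21). The part of villus cell content in the low junction signal of suckling replicate 1 was not tested.

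Crypt and proliferation markers went the other way in that array. Their level, over 5 tested of 12 listed genes, was 0.56 in suckling replicate 1, -0.89 to -0.08 in the other suckling arrays and -0.01 to 0.52 in the weaned arrays; their summed signal was 17.7 to 25.2 in weaned and 9.86 to 24.5 in suckling arrays. CCNB1, a mitotic cyclin, had 2.56 ± 0.47 in weaned and 1.76 ± 0.78 in suckling piglets, and CDK1, its kinase, had 3.14 ± 0.37 in weaned and 2.41 ± 0.78 in suckling piglets (SD, n = 4 each). Smooth muscle markers (3 of 8 tested; ACTA2 and CNN1, contractile proteins) had list levels of -1.35 to 0.60 in weaned and -0.34 to 0.79 in suckling arrays. Fibroblast markers (3 of 8 tested; COL1A2 and LUM, matrix proteins) had -0.52 to 0.22 in weaned and -0.14 to 0.43 in suckling arrays. Leukocyte markers (8 of 11 tested; LYZ, lysozyme, and CD14, a receptor of monocytes) had -0.01 to 0.58 in weaned and -0.60 to 0.29 in suckling arrays. No gene of these marker lists passed the threshold with all 8 arrays; without suckling replicate 1 the crypt gene MCM3, a replication helicase subunit named after its values were seen, did (limma adjusted p = 0.035).

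**Figure D3:**
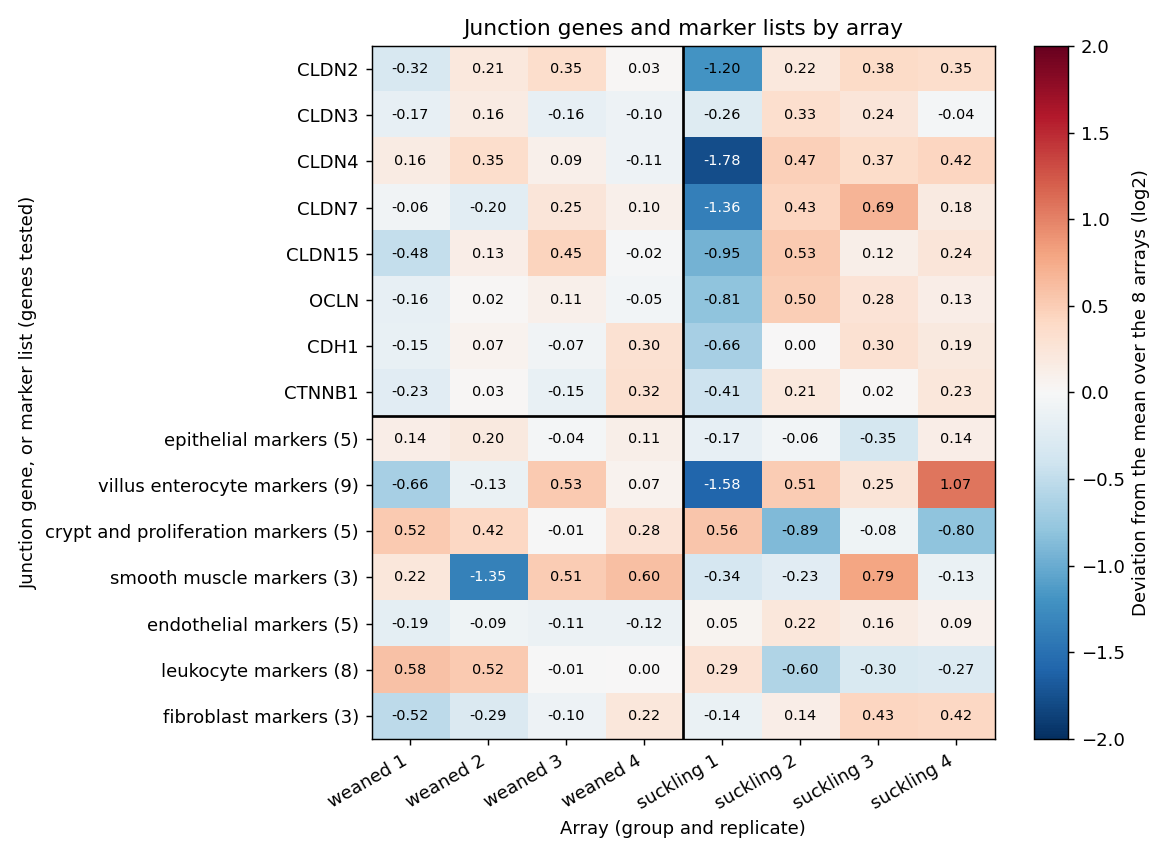
Deviation from the mean over the 8 arrays (colour and printed value, log2) for each junction gene (rows above the line) and for the median of each marker list (rows below, number of tested genes in brackets), with 1 column per array and weaned arrays left of suckling arrays. The column of suckling replicate 1 is negative for all 8 junction genes and at -1.58 for the villus list, while the epithelial list is at -0.17 and the crypt list at 0.56 there.

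When every array was scaled to its epithelial markers in place of the 75th percentile, the scale was in effect EPCAM and not the whole list. EPCAM was the middle of the 5 tested markers in every array. The CLDN4 difference went from 0.25 to 0.30 and that of CTNNB1 from -0.02 to 0.03. These shifts have the size of EPCAM's own difference of -0.05. The level of the 8 junction genes was then -0.65 in suckling replicate 1, against 0.06 to 0.43 in the other suckling arrays and -0.09 to 0.13 in the weaned arrays. In that scaling 6 of 8 junction genes had their lowest value in suckling replicate 1, as did 8.44% of all tested probes. Under quantile normalization and in the deposited log2 table this held for 7 of 8 genes and for 17.9% of all tested probes. Under normexp background correction it held for 6 genes and 18.4% of probes, and under median scaling for 8 genes and 19.5% of probes.

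Other genes of the junctions did not pass the threshold either. Of 15 further claudins, all with a probe, 10 were tested and 0 passed; 5 had a higher and 5 a lower mean in weaned piglets, with a median difference of 0.06. Their median without suckling replicate 1 was -0.16, and 4 of 10 had their lowest value in that array. The smallest p belonged to CLDN5, the claudin of vessel walls, with -1.34 ± 0.16 in weaned and -0.87 ± 0.34 in suckling piglets (SD, n = 4 each), a difference of -0.47 (limma adjusted p = 0.381). The endothelial markers had list levels of -0.19 to -0.09 in weaned and 0.05 to 0.22 in suckling arrays over 5 tested of 8 genes, among them CDH5 and KDR with differences of -0.40 and -0.36 (limma adjusted p = 0.344 and 0.399); their part in the CLDN5 value was not tested. CLDN11, a claudin of myelin and testis, and CLDN23, a claudin of the gut epithelium, differed by -0.51 and 0.56 (limma adjusted p = 0.512 and 0.579). CLDN10, which exists as cation and anion channel forms and is named here after its values were seen, had -4.45, -3.36, -1.26 and -3.09 in weaned replicates 1 to 4, and -6.99, -2.18, -2.21 and -2.67 in suckling replicates 1 to 4. It was well above background on 7 of 8 arrays and not in suckling replicate 1, where its value is only a bound.

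Among other tight junction membrane proteins, 2 of 10 were tested and 0 passed: MARVELD3, a relative of occludin, and F11R, the adhesion molecule JAM-A, had differences of -0.09 and -0.17 (limma adjusted p = 0.931 and 0.833), and both had their lowest value in suckling replicate 1. MARVELD3 had 1.42 there and 2.53 to 2.74 in the other suckling arrays. The scaffold and polarity proteins (3 of 21 tested, 0 past) had their lowest value in other arrays than suckling replicate 1 in 3 of 3 cases. Of these, YBX3, a transcription factor that binds ZO-1 at the junction, had 2.00 ± 0.10 in weaned and 1.49 ± 0.25 in suckling piglets (SD, n = 4 each; difference 0.51, limma adjusted p = 0.279), with every weaned array above every suckling array. PARD6B and MAGI3, polarity and scaffold proteins, differed by -0.03 and -0.01.

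Of other adherens junction proteins, 5 of 18 were tested and 0 passed. JUP, plakoglobin, which can stand in for β-catenin and also sits in desmosomes, had 1.17 ± 0.21 in weaned and 0.56 ± 0.39 in suckling piglets (SD, n = 4 each), a difference of 0.61 (limma adjusted p = 0.321) with no overlap between the groups. ACTN1 and VCL, actin-binding proteins at the junction, differed by 0.40 and -0.22 (limma adjusted p = 0.476 and 0.631). Of desmosome and keratin proteins, 3 of 17 were tested and 0 passed: besides KRT8, DSP, which anchors keratin filaments, and DSG1, a desmosomal cadherin, differed by 0.21 and -0.18. Groups did not overlap for 7.74% of all tested probes and for 0 of the 8 junction genes.

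Of regulators of the junctional actin ring, 7 of 19 were tested and 0 passed, with 5 higher and 2 lower in mean in weaned piglets. RHOA, a small GTPase that contracts the ring, had 4.08, 4.21, 3.81 and 4.22 in weaned replicates 1 to 4, and 3.60, 3.73, 3.65 and 3.80 in suckling replicates 1 to 4. Every weaned array was above every suckling array, by a mean of 0.38 (limma adjusted p = 0.354). The nearest arrays almost met, at 3.81 in weaned replicate 3 and 3.80 in suckling replicate 4. RDX, of the same list and named here after its values were seen, did not overlap in the other direction. Its difference was -0.22 (limma adjusted p = 0.544). ARHGEF2, an exchange factor for RHOA at tight junctions, and CDC42, a polarity GTPase, differed by 0.48 and 0.27 (limma adjusted p = 0.39 and 0.512). Of cytokines and proteases that act on junctions, 10 of 16 were tested and 0 passed, with 8 of 10 higher in mean in weaned piglets and a median of 0.19; 54.6% of all tested probes were higher, and without suckling replicate 1 the count was 6 of 10. TNF, a cytokine that opens tight junctions in cell culture, had 0.05, 0.60, 0.26 and -0.10 in weaned replicates 1 to 4, and -0.65, -0.47, -1.11 and -0.64 in suckling replicates 1 to 4. The groups did not overlap, and the difference was 0.92 (SE 0.21, limma adjusted p = 0.155, and 0.07 without suckling replicate 1). TNF was not alone in this, as YBX3 and KRT8 had limma adjusted p = 0.07 and 0.064 without that array. IL1B, an inflammatory cytokine, and LTA, lymphotoxin, differed by 1.32 and 0.16 (limma adjusted p = 0.347 and 0.738).

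The symbols whose pattern over the 8 arrays was most like the median deviation of the 8 junction genes included HTR1D, TMBIM6, DIO1 and DAO, among 2805 compared, with Pearson r between 0.971 and 0.991. HTR1D is a serotonin receptor, TMBIM6 a protein of the endoplasmic reticulum, DIO1 a deiodinase that activates thyroid hormone and DAO an oxidase of D-amino acids. TMBIM6, for example, had 4.35 ± 0.29 in weaned and 4.45 ± 1.01 in suckling piglets (SD, n = 4 each). Without suckling replicate 1, r was between 0.856 and 0.962 for the same 4 genes.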

How the data were processed

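Jejunal RNA of 4 weaned and 4 suckling piglets was measured on 1-colour arrays. Scans were read with Agilent Feature Extraction 10.7 (per the submitters' processing notes), and, per the file headers, the deposited intensity of each spot is already background-subtracted. The deposited log2 table holds values of the same arrays in the same order per array (Spearman 1 to the processed intensity), with a median of 5.50 in every column and arrays within 0.0671 of each other at the same rank; its normalization and centring are not given in the sources used here.

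From the processed intensities, control spots and spots flagged as outliers were left out, spots of a probe were averaged on the log2 scale, and the array's 75th percentile was subtracted. Probes well above background on at least 4 arrays, with at least 3 values per group, were tested with limma 3.58.1 in R 4.3.3 (two-sided, group as the sole term, Benjamini-Hochberg over 30554 probes, threshold 0.05). The code was tested on simulated data. RefSeq accessions were matched without versions to the Sscrofa11.1 gene table, used for names and gene order alone; 15.9% of 43603 probes got a symbol. The array number limits the precision.

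Named genes are all members with a probe, up to 3 genes of smallest p per junction list, up to 2 per marker list, and the 5 symbols most like the members' median deviation, of which 1 is not reported here; each gene outside this rule is marked in the text. The members and lists were chosen with earlier results of these data known. Alternatives covered the scaling, background correction, filter, flags, variance model, replicate block, deposited table, probes and each array left out. The 4 arrayed piglets of a group came from different litters, but no label ties replicate numbers to litters. The slide could not be fitted as a block because each slide holds 1 group.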

Additional observations from a re-analysis of the deposited data

Results flagged for a closer look

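Of 16 groups of 4 values (8 junction genes in 2 groups), 2 had an array far from the other 3, measured as the gap to the nearest array divided by the range of the group; chance gives this for about 1 in 20 groups. Both were suckling replicate 1 as the lowest of the suckling arrays. The gap was 0.956 of the range for CLDN4 and 0.899 for CLDN2. The 8 genes share the same arrays, and suckling replicate 1 was the lowest array for all 8 of them. The 16 groups are therefore not independent, and 2 of 16 cannot be set against 1 in 20. The villus enterocyte markers were lowest in the same array and its 75th percentile was the lowest of the 8; what part either has in these 2 values was not tested.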

How the results depend on the processing

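No junction gene passed the threshold under any alternative run, and 0 of 8 had an unadjusted p under 0.05 in any of them. Differences this close to 0 changed sign in some. CLDN15 was at -0.01 under quantile normalization and in the deposited log2 table. Normexp background correction gave -0.02 for CLDN2, -0.03 for CLDN15 and -0.08 for CDH1. Array weights gave -0.11 for CLDN2, -0.06 for CLDN4, -0.34 for CLDN7, -0.18 for CLDN15 and -0.05 for CDH1. CTNNB1 was at 0.03 when arrays were scaled to epithelial markers (in effect EPCAM) and at 0.08 as the mean over its probes. With both arrays at slide position 1 dropped, CLDN2 was at -0.12, CLDN4 at -0.31, CLDN7 at -0.38, CLDN15 at -0.11 and CDH1 at -0.06. With each array left out in turn, the differences ran between -0.25 and 0.28 for CLDN2, -0.30 and 0.46 for CLDN4, -0.41 and 0.27 for CLDN7, -0.28 and 0.22 for CLDN15, -0.32 and 0.11 for OCLN, -0.12 and 0.20 for CDH1, and -0.16 and 0.06 for CTNNB1. The cause of these sign changes was not tested.

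The number of probes past the threshold, 54 with all arrays, was 23 when scaled to epithelial markers (in effect EPCAM). It was 323 with array weights (259 higher, 64 lower) and 16 without the 2 arrays at slide position 1. It was 9 to 548 with 1 array left out, the 548 (368 higher, 180 lower) without suckling replicate 1. Normexp gave 66 higher and 10 lower, against 53 higher and 1 lower in the main setting. With a replicate block the count was 0, while the SE of each junction gene was smaller. For CLDN2 it was 0.228 against 0.354, and for CLDN15 0.203 against 0.33. Same-numbered arrays had correlations of their deviations of 0.368, 0.008, 0.186 and -0.018. These cannot decide whether the numbers mark litters, since same-numbered arrays also share a slide position. As no label ties them to litters, the numbers were not taken as pairs, and the intervals given here include differences between litters. With 4 arrays a group, the 95% intervals leave room for a CLDN4 level 1.76-fold lower to 2.50-fold higher in weaned piglets.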
